A study of Mus musculus with 72 samples.

Results

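Expression of 10 genes that encode C-type lectin receptors of myeloid cells was followed in the epididymal white adipose tissue (eWAT), liver and pituitary of male mice. The genes were Clec7a, Clec4d, Clec4e, Clec4n, Clec5a, Clec12a, Clec4a1, Clec4a2, Clec4a3 and Clec10a, which are 10 of the 55416 genes counted. Each symbol matched 1 Ensembl identifier of the count table, so all 10 genes had counts. In the order given, these identifiers are ENSMUSG00000079293, ENSMUSG00000030144, ENSMUSG00000030142, ENSMUSG00000023349, ENSMUSG00000029915, ENSMUSG00000053063, ENSMUSG00000049037, ENSMUSG00000030148, ENSMUSG00000043832 and ENSMUSG00000000318. RNA sequencing was done on 72 libraries from 24 mice of the strain FVB.129P2-Pde6b+ Tyrc-ch/AntJ, called sighted FVB, with 6 mice in each of 4 groups and the same mice in all 3 tissues. FED mice were born to dams that ate freely, and CR20 mice to dams that received 20% less food from embryonic day 15. All offspring were weaned at postnatal day 21. From 8 weeks of age their food held 10% fat (CTRL) or 45% fat (HFD) for 10 weeks, which gives the groups FED-CTRL, FED-HFD, CR20-CTRL and CR20-HFD. The labels name no engineered allele.

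C-type lectin receptors are surface proteins that bind sugars, lipids and material from dying cells or microbes. The activating receptors signal through the tyrosine kinase Syk and the adaptor Card9, either directly or through the adaptor chains Fcer1g and Tyrobp. The inhibitory receptors carry a motif that recruits phosphatases such as Ptpn6. In adipose tissue such receptors are mainly made by macrophages and dendritic cells. The tissue was sequenced in bulk, so that a change in the number of these cells and a change in the RNA per cell cannot be told apart.

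Of the 10 genes, 9 lie on chromosome 6 and 1, Clec10a, on chromosome 11 (GRCm39 70047023 to 70061660, plus strand). A stretch of 371 kb on chromosome 6 (122896122 to 123266829) holds 6 of them, in the order Clec4a1, Clec4a3, Clec4a2, Clec4n, Clec4d and Clec4e. The first 5 of these are on the plus strand, and Clec4e is on the minus strand. Clec12a and Clec7a lie within 130 kb of each other (129319654 to 129449742). Clec5a stands alone on this chromosome (40551234 to 40562773, minus strand) and shares exonic sequence with Or9a4 on the opposite strand. Clec4a2 also shares exonic sequence with a gene on the opposite strand, Gm67020, which was not among the genes counted. Whether the counting used the strand was not given in the sources used here, so reads of either pair may be mixed. The Clec4a genes are close relatives, and reads that fit more than 1 of them could be lost or split.

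RefSeq promoter windows, which run from 250 bases before to 50 bases after a transcription start, were available for 8 of the 10 genes. Each of the 10 windows of these 8 genes had 1 exact match in GRCm39. Clec4n and Clec10a had no entry. The letters GAGGAA, the core of the site bound by PU.1, a transcription factor of myeloid cells, were searched on both strands. They were found in windows of 7 of the 8 genes. Clec4a2 had no match, and Clec4a3 had one in only 1 of its windows. Of all 32851 promoter windows, 28.3% hold these letters. The letters TTNNGNAA of C/EBP were found in 5 genes (40.7% of all windows), TGANTCA of AP-1 in 2 genes (7.81%), and those of NF-kB (GGG, any 5 bases, CC) in 1 gene (50.8%). Matches of different motifs could overlap. The letters are a description of the sequence and were not tested for binding. Shown are the windows of the neighbours Clec4d and Clec4e, of which only the first was called in eWAT, and of the neighbours Clec7a and Clec12a, which both rose there. Capitals mark GAGGAA or its reverse complement, and each window is written 5′ to 3′ in the direction of its gene, with RefSeq sequence (GRCm38.p6 table) and GRCm39 coordinates.
Clec4d (chr6:123238816-123239115, plus strand): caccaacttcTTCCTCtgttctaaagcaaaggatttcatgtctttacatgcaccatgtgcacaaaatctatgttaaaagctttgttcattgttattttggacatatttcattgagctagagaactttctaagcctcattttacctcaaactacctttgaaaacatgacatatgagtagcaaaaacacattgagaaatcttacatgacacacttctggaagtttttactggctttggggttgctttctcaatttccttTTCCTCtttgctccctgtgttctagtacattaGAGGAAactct
Clec4e (chr6:123266781-123267080, minus strand): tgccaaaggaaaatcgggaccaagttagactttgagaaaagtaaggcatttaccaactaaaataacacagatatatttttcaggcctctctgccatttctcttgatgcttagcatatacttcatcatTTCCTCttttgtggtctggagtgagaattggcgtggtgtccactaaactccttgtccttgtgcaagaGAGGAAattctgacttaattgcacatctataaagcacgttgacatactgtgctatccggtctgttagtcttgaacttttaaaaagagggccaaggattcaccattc
Clec7a (chr6:129449693-129449992, minus strand): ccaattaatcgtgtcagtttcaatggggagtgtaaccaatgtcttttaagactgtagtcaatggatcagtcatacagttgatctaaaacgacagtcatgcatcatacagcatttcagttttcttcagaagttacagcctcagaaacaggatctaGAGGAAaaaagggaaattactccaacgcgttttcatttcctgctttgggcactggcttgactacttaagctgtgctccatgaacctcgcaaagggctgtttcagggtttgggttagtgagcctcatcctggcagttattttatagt
Clec12a (chr6:129326957-129327256, plus strand): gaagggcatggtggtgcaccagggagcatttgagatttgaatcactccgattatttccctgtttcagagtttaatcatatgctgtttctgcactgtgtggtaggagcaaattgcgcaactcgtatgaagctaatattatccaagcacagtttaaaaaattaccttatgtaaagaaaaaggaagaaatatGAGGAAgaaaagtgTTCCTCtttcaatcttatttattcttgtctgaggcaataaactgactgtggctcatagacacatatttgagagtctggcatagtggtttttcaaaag
In this view the Clec4d window holds 3 such matches, those of Clec4e and Clec12a hold 2 each, and that of Clec7a holds 1.

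The libraries had 9842813 to 27601208 counts, and 3 counts corresponded to 0.109 to 0.305 CPM, the unit of level used here. CPM are counts scaled to a common library size with TMM factors, which correct for differences in RNA composition between libraries. The log2 fold change is written log2FC. A call required both a log2FC of at least 1 in size and an adjusted p-value no higher than 0.055, by edgeR's quasi-likelihood test with Benjamini-Hochberg adjustment over all genes tested. Errors of a log2FC are standard errors (SE). The labels give 1 number to each mouse. FED-HFD mouse 23 stood apart in eWAT, where it had the highest value of its group for all 10 receptors. The values of each receptor in both eWAT comparisons of FED-HFD with another group are therefore also given without it. Shares of all genes called are those of the edgeR fits with all mice. Counts without mouse 23 or by other tests are given without such a share and cannot be set against it.

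The first question was how the receptors responded to the HFD in eWAT of mice from freely fed dams. Of the 10 genes tested, 5 were called higher in FED-HFD than in FED-CTRL, namely Clec4d, Clec12a, Clec4a2, Clec7a and Clec10a. No receptor was called lower. Over all 15964 genes tested, 4.18% were called higher. The median log2FC of the 10 receptors was 1.14, beside -0.002 over all genes. At the adjusted p-value alone, without a minimum log2FC, 7 of 10 receptors and 8.09% of genes were higher. The groups did not overlap for 6 receptors, beside 4.06% of all genes. Without mouse 23, 3 receptors were called. The mice were also compared within ranges of their number, whose meaning the labels do not give. FED-HFD was above FED-CTRL for 9 receptors among mice numbered under 20 (4 against 3 mice), with a median difference of 0.66 in log2 CPM. Among mice numbered 40 and above (1 against 2) it was above for 10, with a median of 0.71. The range between held mouse 23 and 1 FED-CTRL mouse, with a median of 2.56.

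Clec7a encodes Dectin-1, the receptor for beta-glucan, which carries its own activating motif. In FED-CTRL eWAT it had a lowest value of 13.4, a median of 15.4 and a highest value of 16.6 CPM. In FED-HFD these values were 20.8, 37.3 and 120.5 CPM. All 6 FED-HFD mice lay above all 6 FED-CTRL mice. Clec7a rose 3.15-fold (log2FC 1.66 ± 0.33 SE, edgeR adjusted p = 0.0037). Without mouse 23 it was still called (log2FC 1.12 ± 0.24, adjusted p = 0.00644).

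Clec4d, Clec4e and Clec4n encode receptors that signal through Fcer1g. Clec4d (MCL) pairs with Clec4e (Mincle), the receptor for mycobacterial cord factor, and Clec4n (Dectin-2) binds fungal mannan. Clec4d ranged from 1.42 over a median of 1.88 to 5.77 CPM in FED-CTRL, and from 2.58 over 4.74 to 89.5 CPM in FED-HFD. The highest value was that of mouse 23, at 10.1 times the next highest FED-HFD mouse, and the groups overlapped. Clec4d had the largest log2FC of the 10 receptors (2.95 ± 0.77, adjusted p = 0.0161). Without mouse 23 the log2FC was 0.95 ± 0.48 and it was no longer called (adjusted p = 0.309).

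Clec4e, the neighbour of Clec4d, had the lowest counts of the 10 genes. It ranged from 0.137 over a median of 0.984 to 2.39 CPM in FED-CTRL and from 0.858 over 1.54 to 2.94 CPM in FED-HFD. These groups overlapped, and the log2FC of 0.61 ± 0.67 did not pass the test (adjusted p = 0.604; 0.36 ± 0.70 without mouse 23). Clec4n ranged from 1.31 over 1.59 to 1.64 CPM in FED-CTRL and from 1.29 over 1.91 to 9.82 CPM in FED-HFD. Its highest value was again that of mouse 23, and the other 5 FED-HFD mice were at 2.12 CPM or below. The log2FC was 1.03 ± 0.44 (adjusted p = 0.135) and 0.20 ± 0.32 without mouse 23 (adjusted p = 0.812).

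Clec5a (MDL-1), which signals through Tyrobp, ranged from 1.92 over a median of 2.31 to 4.32 CPM in FED-CTRL and from 1.77 over 3.12 to 4.64 CPM in FED-HFD. The groups overlapped over most of their range. Its log2FC was 0.29 ± 0.29 (adjusted p = 0.564), the smallest of the 10 receptors, and 0.14 ± 0.30 without mouse 23.

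The inhibitory receptors Clec12a and Clec4a2 rose. Clec12a (MICL) binds uric acid crystals and restrains activation. It ranged from 16.2 over a median of 18.3 to 26.1 CPM in FED-CTRL and from 34.8 over 62.7 to 181 CPM in FED-HFD. No FED-HFD mouse reached down to the FED-CTRL range, and the rise was 3.86-fold (log2FC 1.95 ± 0.37, adjusted p = 0.00326). Clec4a2 (DCIR) ranged from 11.1 over 13.8 to 16.6 CPM in FED-CTRL and from 22.5 over 34.9 to 122 CPM in FED-HFD. These groups did not overlap either, and the rise was 3.42-fold (log2FC 1.78 ± 0.36, adjusted p = 0.0037). Both were still called without mouse 23, at log2FC 1.49 ± 0.31 for Clec12a (adjusted p = 0.00627) and 1.22 ± 0.26 for Clec4a2 (adjusted p = 0.00746).

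Clec4a1 and Clec4a3 encode relatives of DCIR in the same gene cluster. Clec4a1 ranged from 10.2 over a median of 11.8 to 14.6 CPM in FED-CTRL and from 15.3 over 17.3 to 29.2 CPM in FED-HFD. Clec4a3 ranged from 11.3 over 12.0 to 14.8 CPM in FED-CTRL and from 15.9 over 21.5 to 44.7 CPM in FED-HFD. For both genes the groups did not overlap. They passed the adjusted p-value but not the minimum log2FC, with 0.70 ± 0.17 for Clec4a1 (adjusted p = 0.0106) and 0.97 ± 0.20 for Clec4a3 (adjusted p = 0.00409). Without mouse 23 these were 0.55 ± 0.15 (adjusted p = 0.0346) and 0.70 ± 0.15 (adjusted p = 0.00635).

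Clec10a encodes MGL1, a receptor for galactose and N-acetylgalactosamine that marks resident and alternatively activated macrophages and dendritic cells. It had the highest CPM of the 10 genes. It ranged from 64.4 over a median of 78.1 to 90.1 CPM in FED-CTRL and from 94.3 over 143 to 406 CPM in FED-HFD. The groups did not overlap, and the rise was 2.39-fold (log2FC 1.26 ± 0.28, adjusted p = 0.00596). Without mouse 23 the log2FC was 0.86 ± 0.21, which is under the minimum for a call although the adjusted p-value was 0.0157.

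**Figure D1:**
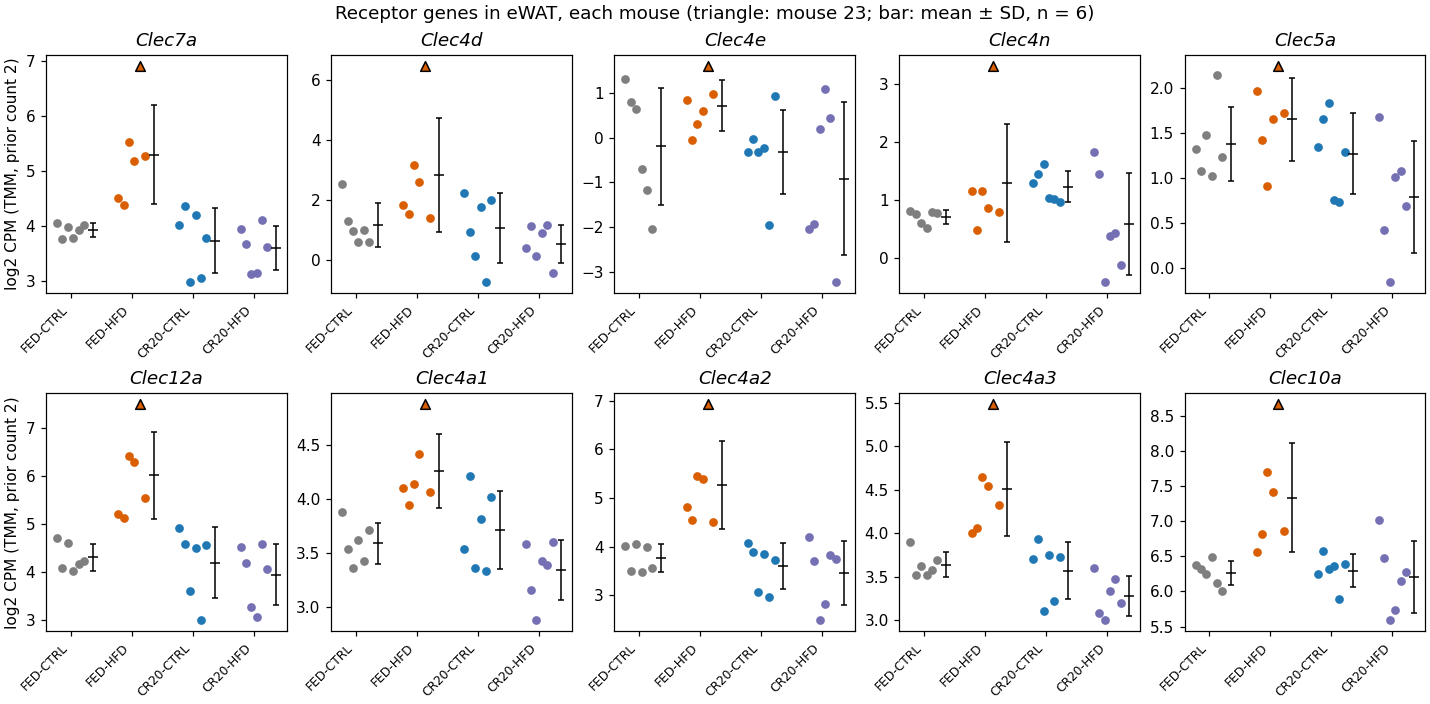
The log2 CPM of each receptor gene (vertical axis, TMM factors and a prior count of 2, with its own scale in each panel) is plotted for each mouse of the 4 eWAT groups (horizontal axis); bars give the mean ± SD of 6 mice, and the triangle is FED-HFD mouse 23. The triangle is the highest FED-HFD point in all 10 panels, and FED-HFD lies above FED-CTRL without overlap for 6 genes.

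The FED-HFD mice differed from each other. For each mouse, the log2 difference from the FED-CTRL mean was taken for each receptor, and the median over the 10 receptors was computed. It was 2.504 in mouse 23, 1.22 in mouse 12 and 1.03 in mouse 13. It was 0.64 in mouse 40, 0.59 in mouse 10 and 0.39 in mouse 11. Mouse 23 exceeded the highest FED-CTRL mouse for all 10 receptors, and the other FED-HFD mice did so for 6 to 8. In CR20-HFD the same median ranged from -0.92 to 0.12, and in CR20-CTRL from -0.73 to 0.29.

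**Figure D2:**
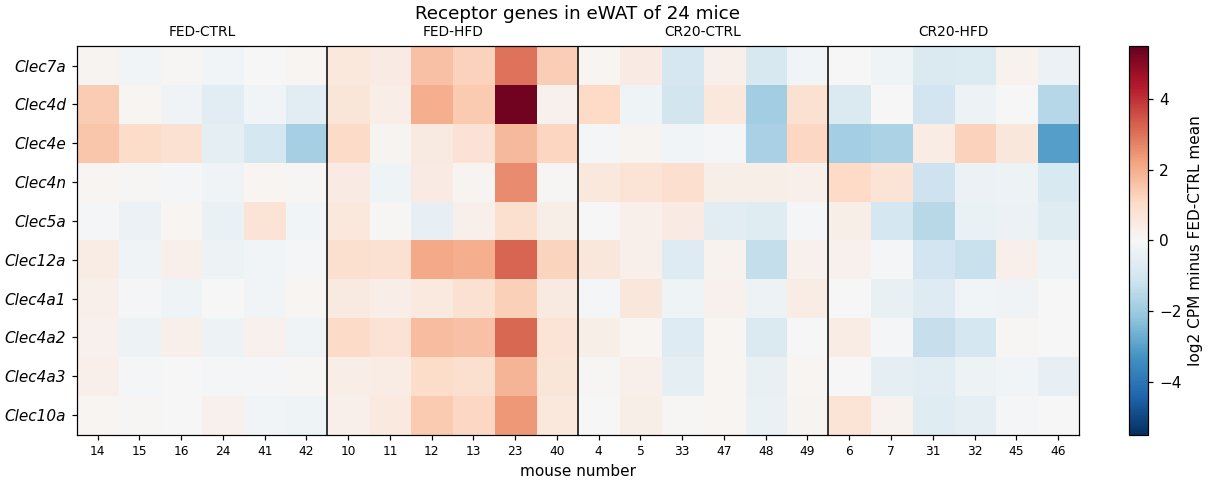
The colour gives the log2 CPM of a receptor (rows) in eWAT of each of 24 mice (columns, mouse number, ordered by group) minus the FED-CTRL mean of that receptor. FED-HFD columns are red for most receptors with the deepest red for Clec4d in mouse 23 (5.31), while the CR20-HFD columns are pale or blue for most.

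The second question was whether the maternal diet changed the levels on the HFD. This comparison shares the FED-HFD mice with the first, on the opposite side, so their directions are not independent. Of the 10 receptors, 6 were called with a lower level in the CR20-HFD group, beside 4.78% of all genes tested. They were Clec4d, Clec12a, Clec4a2, Clec7a, Clec4a3 and Clec10a. No receptor was called higher. The median log2FC of the 10 was -1.28, beside 0.02 over all genes. By the adjusted p-value alone 8 receptors and 10.4% of genes were lower. The groups did not overlap for 6 receptors, beside 4.17% of genes. Without mouse 23, 5 receptors were called. CR20-HFD was below FED-HFD for 9 receptors among mice numbered under 20 (2 against 4 mice), with a median difference of -1.03 in log2 CPM. Among mice numbered 40 and above (2 against 1) it was below for 10, with a median of -0.91. The range between held 2 CR20-HFD mice and mouse 23, with a median of -3.165. The receptors were measured in the same mice, so their number does not add replicates.

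Clec7a in CR20-HFD had a lowest value of 8.56, a median of 12.4 and a highest value of 17.0 CPM, all below the FED-HFD mice (log2FC -1.94 ± 0.34, adjusted p = 0.000872). Clec12a in CR20-HFD ranged from 8.26 over 17.4 to 23.8 CPM, also without overlap (log2FC -2.23 ± 0.38, adjusted p = 0.000824). Clec4a2 ranged from 5.49 over 13.1 to 18.2 CPM in CR20-HFD (log2FC -1.997 ± 0.36, adjusted p = 0.00105). No CR20-HFD mouse reached the FED-HFD range for any of these 3 genes, and each was called in all 12 fits with 1 mouse left out. Without mouse 23 their log2FC were -1.41 for Clec7a, -1.77 for Clec12a and -1.44 for Clec4a2. Clec4d ranged from 0.646 over 1.49 to 2.16 CPM in CR20-HFD, below all FED-HFD mice. Its log2FC was -3.68 ± 0.81 (adjusted p = 0.00386), and it was still called without mouse 23 (-1.68 ± 0.497, adjusted p = 0.0369).

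Clec4a3 had the smallest p-value of the 10 receptors in this comparison. It ranged from 7.86 over a median of 9.51 to 12.0 CPM in CR20-HFD, and no CR20-HFD mouse overlapped FED-HFD (log2FC -1.32 ± 0.20, adjusted p = 0.000601, and -1.04 ± 0.15 without mouse 23). Clec10a ranged from 48.0 over 74.1 to 129 CPM in CR20-HFD, and its highest mouse, number 6, overlapped FED-HFD. It was called with log2FC -1.25 ± 0.28 (adjusted p = 0.0042), but without mouse 23 the log2FC was -0.85 ± 0.21 (adjusted p = 0.0121), under the minimum. Clec4a1 ranged from 7.22 over a median of 10.5 to 12.0 CPM in CR20-HFD, below all FED-HFD mice. Clec4a1 (log2FC -0.94 ± 0.17, adjusted p = 0.00116) and Clec5a (-0.85 ± 0.30, adjusted p = 0.0541) passed the adjusted p-value but not the minimum log2FC. Without mouse 23 Clec4a1 was at -0.78 ± 0.15 (adjusted p = 0.00213), and Clec5a was at -0.70 ± 0.30 and no longer passed the adjusted p-value (adjusted p = 0.159). In CR20-HFD, Clec5a ranged from 0.791 to 3.10, Clec4n from 0.643 to 3.43 and Clec4e from 0 to 2.01 CPM, all with overlap. Clec4n had log2FC -0.94 ± 0.44 (adjusted p = 0.153), or -0.10 ± 0.32 without mouse 23, and Clec4e had -1.07 ± 0.68 (adjusted p = 0.307), or -0.81 ± 0.72 without it.

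The third question was whether the response to the HFD itself differed between CR20 and FED offspring. In CR20 mice no receptor was called between HFD and CTRL in eWAT, and no gene was called at all (0% of 15964). By edgeR, 1 receptor, Clec4a1, had an unadjusted p under 0.05 (log2FC -0.39 ± 0.17, adjusted p = 0.826). Voom with quality weights and DESeq2 also called 0 receptors. All 10 log2FC were below 0, from -0.79 to -0.03, and the groups overlapped for all 10. In CR20-CTRL, the medians of Clec7a (14.9 CPM), Clec4a2 (13.8), Clec12a (23.1), Clec4d (2.57), Clec4a1 (12.7), Clec4a3 (13.0), Clec10a (80.7), Clec5a (2.38) and Clec4e (0.719) came with ranges that overlapped those of FED-CTRL. Between CR20-CTRL and FED-CTRL 0 receptors were called by edgeR, voom with quality weights or DESeq2, 0 had an unadjusted p under 0.05, and 0% of genes were called. Clec4n was the only receptor whose groups did not overlap there, with 1.85 to 2.98 CPM in CR20-CTRL against 1.31 to 1.64 CPM in FED-CTRL (log2FC 0.56 ± 0.44, adjusted p = 0.919). Of all genes, 0.0814% were higher in CR20-CTRL without overlap.

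The difference of the diet changes, CR20 minus FED, was tested as an interaction. Of the 10 receptors, 5 were called with a negative value, beside 2.23% of all genes. They were Clec12a (-2.23 ± 0.52 SE on the log2 scale, adjusted p = 0.034), Clec4a2 (-1.86 ± 0.50, adjusted p = 0.0486), Clec7a (-1.84 ± 0.47, adjusted p = 0.0422), Clec4a3 (-1.27 ± 0.28, adjusted p = 0.0322) and Clec4a1 (-1.09 ± 0.24, adjusted p = 0.0322). Clec4d had the largest value of the 10 (-3.74 ± 1.08) but was not called (adjusted p = 0.0684), nor was Clec10a (-1.29 ± 0.39, adjusted p = 0.0775). Clec4n (-1.498 ± 0.62, adjusted p = 0.207), Clec5a (-0.74 ± 0.41, adjusted p = 0.343) and Clec4e (-0.67 ± 0.97, adjusted p = 0.751) were not called. All 10 values were below 0. These calls lay close to the threshold. Without mouse 23 only Clec7a and Clec12a were called, since Clec4a1 and Clec4a3 fell short of the minimum size (-0.92 and -0.98) and Clec4a2 of the adjusted p-value (0.0763). Voom called 0 receptors with or without quality weights, and leaving out 1 mouse gave 0 to 7 calls.

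**Figure D3:**
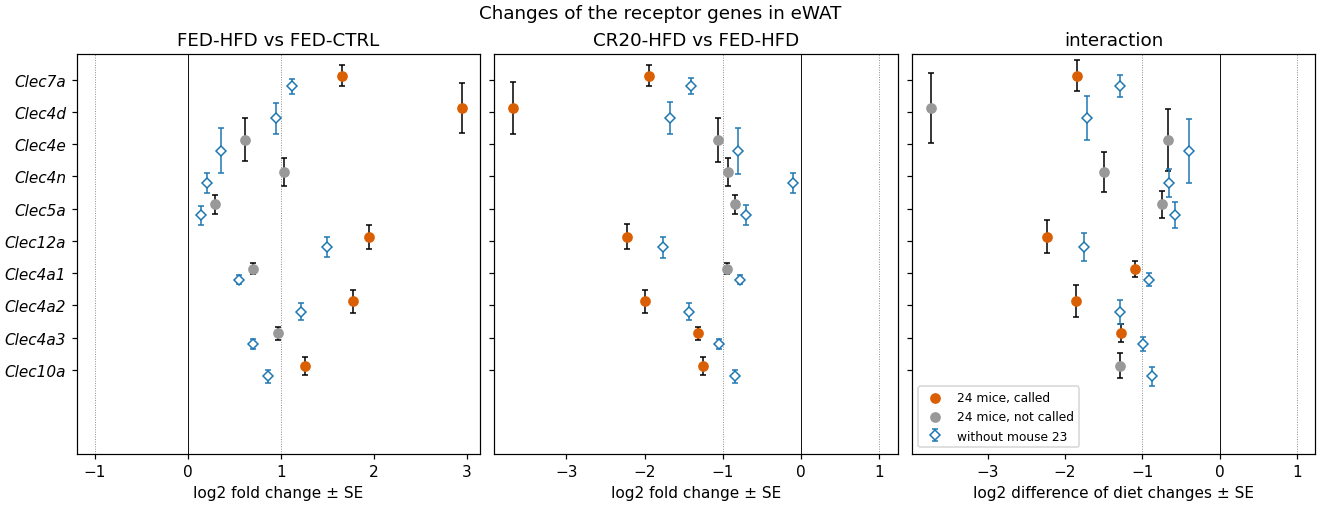
The log2 fold change ± SE of each receptor (rows) in eWAT is plotted for the HFD in FED mice (left), CR20 against FED mice on the HFD (middle) and the interaction (right); filled circles use 24 mice (orange if called, grey if not), open diamonds leave out mouse 23, and dotted lines mark a log2 value of -1 and 1. All filled circles lie above 0 in the first panel and below 0 in the other panels, and every diamond lies closer to 0 than its circle.

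Genes of the receptors' signalling pathway were taken as a list of 26, all of which were tested in eWAT. In FED-HFD, 11 of the 26 were called higher, beside the 4.18% of all genes, and 0 lower, with a median log2FC of 0.86. Fcer1g, the adaptor chain of Clec4d, Clec4e and Clec4n, rose (log2FC 1.499 ± 0.28, adjusted p = 0.00297), as did Tyrobp, the adaptor of Clec5a (1.84 ± 0.34, adjusted p = 0.00297). Syk rose (1.67 ± 0.29, adjusted p = 0.00297), and so did Card9 (1.02 ± 0.31, adjusted p = 0.0347) and the phosphatase Ptpn6 (1.14 ± 0.26, adjusted p = 0.007). Of the 26 genes, 14 were called lower on the HFD in CR20 than in FED mice, beside the 4.78% of all genes, and 0 higher. The smallest p-value was that of Malt1, the protease in the complex with Card9 (log2FC -1.00 ± 0.16, adjusted p = 0.000601). Fcer1g fell by 1.57, Tyrobp by 1.93, Syk by 1.70, Card9 by 1.19 and Ptpn6 by 1.42 on the log2 scale, and all 5 were called. In the interaction 11 were called negative, beside the 2.23% of all genes, with Fcer1g, Tyrobp, Syk and Ptpn6 among them, while Card9 was not (-1.04 ± 0.43, adjusted p = 0.212). Without mouse 23, 5 of the 26 were called higher in FED-HFD, 8 lower in CR20-HFD and 8 in the interaction, and voom with quality weights called 5, 10 and 4. Between the diets in CR20 mice 0 of the 26 were called by edgeR, voom with quality weights or DESeq2, with 1 at an unadjusted p under 0.05 by edgeR.

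Of 18 cytokines and other genes that such signalling induces, 12 were tested in eWAT. In FED-HFD 5 were called higher (4.18% of all genes) and 0 lower, with the smallest p-value for Il1rn, the antagonist of the interleukin-1 receptor (log2FC 3.65 ± 0.66, adjusted p = 0.00297). On the HFD 6 were called lower in CR20 than in FED mice (4.78% of all genes), again led by Il1rn (-3.51 ± 0.66, adjusted p = 0.00125). The study had already named Il1rn as changed in both comparisons of these libraries, so its place here is not separate support. In the interaction 2 were called negative (2.23% of all genes), led by the transcription factor Egr2 (-2.80 ± 0.67, adjusted p = 0.0351). Without mouse 23 the counts were 2, 2 and 1, and by voom with quality weights 5, 5 and 0. Of 32 other C-type lectin genes, 25 were tested. In FED-HFD 1 was called higher (4.18% of all genes), Clec4b1, a neighbour in the cluster on chromosome 6 (log2FC 1.28 ± 0.31, adjusted p = 0.00971). The median log2FC of the 25 was 0.004. By edgeR 11 of the 25 had an unadjusted p under 0.05, and voom with quality weights called 3. In CR20-HFD 4 of the 25 were called lower than in FED-HFD (4.78% of all genes), and 2 either without mouse 23 or by voom with quality weights. The smallest p-value was that of Clec4b1 (-1.62 ± 0.31, adjusted p = 0.00157).

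Markers of cells that carry the receptors were followed in the same comparisons, and the lists did not all move alike. Of 12 macrophage genes, 4 were called higher on the HFD in FED mice, and 5 were called lower between CR20 and FED mice on this diet, with 2 and 4 without mouse 23. Of all genes these shares were 4.18% and 4.78%. Their summed level ranged from 1588 to 2302 CPM in FED-CTRL, from 2259 to 9782 CPM in FED-HFD, from 1309 to 2651 CPM in CR20-CTRL and from 1403 to 2242 CPM in CR20-HFD. The highest value was that of mouse 23, which also had the lowest sum of 8 adipocyte genes in FED-HFD. Of 9 genes of lipid-associated macrophages, 5 were called higher in FED-HFD and 5 lower in CR20-HFD than there, and 4 each without mouse 23. Their sum without Lpl, which adipocytes express too, ranged from 1602 to 2035 CPM in FED-CTRL and from 2431 to 10877 CPM in FED-HFD, with mouse 23 highest. In CR20-CTRL it ranged from 1122 to 2335 CPM and in CR20-HFD from 1072 to 1922 CPM. Lpl itself went the other way, with 10442 to 12266 CPM in FED-CTRL and 5489 to 10388 CPM in FED-HFD. With Lpl included, the sum of the 9 genes did not rise, with medians of 13263 CPM in FED-CTRL and 12892 CPM in FED-HFD. Of 7 monocyte genes, 1 was called higher in FED-HFD, and of 8 dendritic cell genes, 0 by edgeR, voom with quality weights or DESeq2, with 2 at an unadjusted p under 0.05. The summed monocyte genes had medians of 205 CPM in FED-CTRL and 216 CPM in FED-HFD. Those of the dendritic cell genes were 47.0 and 47.4 CPM. In CR20-HFD against FED-HFD, 2 of the 7 monocyte genes and 3 of the 8 dendritic cell genes were called lower, and 2 and 1 without mouse 23. On the HFD in FED mice, of 6 stromal genes, 1 was called higher (0 without mouse 23), and of 6 hepatocyte genes, 2, with sums of 2948 to 8309 CPM and 7.80 to 796 CPM in FED-HFD. The hepatocyte sum was lowest in mouse 23, and in FED-CTRL it was 69.7 to 270.2 CPM. Its median was 168 CPM in FED-CTRL and 68.4 CPM in FED-HFD. In CR20-CTRL the sum was 130 to 953 CPM and in CR20-HFD 102 to 988 CPM. In CR20-HFD against FED-HFD, 1 of the 6 hepatocyte genes was called higher and 2 lower, and 5 were called without mouse 23. Of 8 genes of epididymis and testis, 0 passed the filter on low counts. Their sum reached 133 CPM in CR20-CTRL (mouse 4) and 26.6 CPM in CR20-HFD (mouse 6). It was at most 0.0487 CPM in FED-CTRL and 0.0918 CPM in FED-HFD. The part of the stromal, hepatocyte and epididymis genes in the receptor results was not tested. Of 11 neutrophil genes only 3 passed the filter on low counts. On the HFD in FED mice none of the 3 was called by edgeR, voom with quality weights or DESeq2, with 1 at an unadjusted p under 0.05. In CR20-HFD against FED-HFD edgeR called 0, with 2 at an unadjusted p under 0.05, and voom with quality weights and DESeq2 called 1 each. Ly6g, a defining neutrophil gene, had at most 3 counts in every library of all 4 eWAT groups, and the sum of the 11 genes was 9.60 to 29.3 CPM in FED-HFD against 9.83 to 14.4 CPM in FED-CTRL.

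The level of each receptor was therefore also set against the macrophage genes, as its log2 CPM minus the mean log2 CPM of the 12 macrophage genes in the same mouse. This is a description without a test. This mean log2 CPM, which served as the reference, was 6.21 ± 0.19 (SD of 6 mice) in FED-CTRL and 6.87 ± 0.44 in FED-HFD. Relative to it, 8 of 10 receptors were higher in FED-HFD than in FED-CTRL, with a median difference of 0.33. Clec12a differed most, at -1.90 ± 0.22 (SD) in FED-CTRL and -0.85 ± 0.51 in FED-HFD, and was the only receptor for which the groups did not overlap. Clec4d differed by 1.01, Clec4a2 by 0.85, Clec7a by 0.72 and Clec10a by 0.41. Clec4a1 differed by 0.01, Clec4n by -0.08 and Clec5a by -0.38. These values depended on the macrophage genes used. Against the median of the 12 genes, 4 receptors were higher and 6 lower in FED-HFD, with a median difference of -0.22, and against Csf1r alone 7 were higher, with a median of 0.31. Without mouse 23, 8 receptors were higher against the mean, 2 against the median (Clec12a by 0.33 and Clec4a2 by 0.09) and 8 against Csf1r. Clec4d and Clec7a were higher against the mean and Csf1r with and without mouse 23, but not against the median without it (-0.15 and -0.03).

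**Figure D4:**
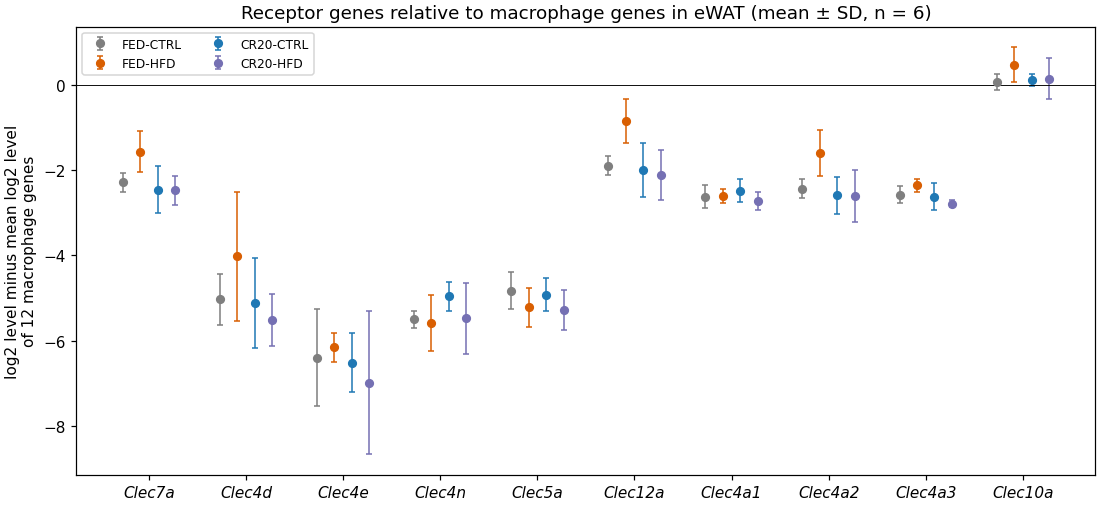
The log2 level of each receptor (horizontal axis) minus the mean log2 level of 12 macrophage genes in the same eWAT sample (vertical axis) is given as mean ± SD of 6 mice per group. Clec12a is at -1.90 in FED-CTRL and -0.85 in FED-HFD, while Clec4a1 differs by 0.01 between these groups, and Clec10a alone lies above 0.

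Across the 24 eWAT libraries the receptors moved together to different degrees. The 45 pairs had Pearson correlations of log2 CPM from 0.16 to 0.97 with a median of 0.64. With the group means removed, the median was 0.63 and the range -0.02 to 0.94. The points share the 4 groups, mouse 23 and the depth of each library. Without mouse 23 the median over the pairs was 0.51 and the range -0.08 to 0.96. Clec12a and Clec4a2 were most alike (0.97), followed by Clec7a and Clec4a3 (0.97). Clec10a was most like Clec4a2 (0.93), Clec4a1 most like Clec4a3 (0.92) and Clec4d most like Clec4a3 (0.88). Clec4n was most like Clec10a (0.71, or 0.43 without mouse 23). The most similar receptors of Clec4e and Clec5a were at 0.62 (Clec4d) and 0.60 (Clec4a1), or 0.62 and 0.51 without mouse 23. Outside the 10 receptors, the genes most like their mean standardised level were C3ar1, the receptor for complement C3a (0.98), Fcer1g (0.97), Cd53 (0.97), Evi2a (0.97) and Plek (0.96).

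In liver, 7 of the 10 receptors passed the filter on low counts. Clec4d, Clec4e and Clec5a did not, with at most 10, 4 and 5 counts in any liver library. None of the 7 was called in any of the 5 comparisons by edgeR, voom with quality weights or DESeq2. Of all 13787 genes tested in liver, 0.0943% were called between the diets in FED mice, 0.377% between the diets in CR20 mice and 0% in the other comparisons. By edgeR 1 receptor had an unadjusted p under 0.05 in each comparison except CR20-CTRL vs FED-CTRL, where there was 0. The smallest p-value was that of Clec4a1 in CR20-HFD vs CR20-CTRL (log2FC 0.73 ± 0.25, adjusted p = 0.274). Clec4a1 ranged from 0.683 over a median of 1.32 to 1.81 CPM in CR20-CTRL liver and from 1.57 over 1.90 to 2.94 CPM in CR20-HFD liver, with overlap.

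In the pituitary, 6 receptors passed the filter, while Clec4d, Clec4e, Clec4n and Clec5a did not. None of the 6 was called in any comparison by the 3 tools, and 0% of the 16657 genes were called by edgeR. By edgeR, receptors with an unadjusted p under 0.05 numbered 1 between the diets in FED mice, 2 between the diets in CR20 mice and 1 between the offspring groups on the HFD, with 0 between the CTRL groups and in the interaction. The smallest p-value was that of Clec12a in FED-HFD vs FED-CTRL (log2FC 0.90 ± 0.28, adjusted p = 0.268). It ranged from 0.740 over a median of 1.44 to 2.004 CPM in FED-CTRL pituitary and from 1.71 over 2.56 to 3.49 CPM in FED-HFD pituitary, with overlap. Of the 26 signalling genes, 0 were called in liver or pituitary in any comparison by edgeR, voom with quality weights or DESeq2. At an unadjusted p under 0.05 by edgeR there were 0 to 6 of them per comparison in each of these tissues.

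The change with the HFD in FED mice was compared between tissues in 1 model. Between eWAT and liver the change differed for 4 of 10 receptors, all with a larger change in eWAT, beside 2.79% of 19210 genes. The differences on the log2 scale were 1.88 ± 0.55 for Clec4a2 (adjusted p = 0.0342), 1.62 ± 0.47 for Clec12a (adjusted p = 0.0317), 1.56 ± 0.45 for Clec7a (adjusted p = 0.0321) and 1.53 ± 0.36 for Clec4a3 (adjusted p = 0.00669). With the mouse as a replicate block 2 receptors were called, Clec4a3 (1.44 ± 0.32) and Clec12a (1.39 ± 0.39), and without mouse 23 only Clec4a3 (1.38 ± 0.36). Between eWAT and pituitary 1 receptor was called, Clec7a (1.62 ± 0.48, adjusted p = 0.0422), beside 2.19% of genes, and with the replicate block or without mouse 23 there was 0.

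The levels of the receptors differed between tissues in FED-CTRL mice. Of the 9 receptors tested (Clec4e was not, for low counts), 8 were called higher in eWAT than in liver, beside 29% of genes called higher in eWAT. The exception was Clec4n, which was lower in eWAT (log2 difference -1.63 ± 0.24, adjusted p = 2.17e-06). Its values were 1.31 to 1.64 CPM in eWAT and 2.03 to 3.38 CPM in liver. Clec10a differed most (4.48 ± 0.18, adjusted p = 2.15e-16). Scaled by the library totals in place of TMM factors, the receptors' eWAT over liver ratios were higher by a median of 0.78 on the log2 scale, and Clec4n was at -0.86 against -1.63 with TMM, which is still lower in eWAT but under the minimum size for a call. All 9 receptors were called higher in eWAT than in pituitary, beside 26.6% of genes, with differences from 2.74 ± 0.33 for Clec5a to 6.68 ± 0.64 for Clec4d. The latter had 0 counts in 5 of 6 FED-CTRL pituitaries, so its difference is not a reliable size. The 12 macrophage genes summed to 1588 to 2302 CPM in FED-CTRL eWAT, 345 to 478 CPM in liver and 220 to 263 CPM in pituitary, and their part in the tissue differences was not tested.

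To compare genes with each other, the CPM was divided by the summed exon length in kilobases. In FED-CTRL eWAT, Clec10a was highest, with a median of 26.9 CPM per kilobase, and did not overlap with the next gene, Clec7a (5.82). Clec4a2 (4.70), Clec4a1 (4.43), Clec4a3 (3.52) and Clec12a (3.11) followed, and each overlapped with its neighbour in this order. Clec4d (1.17), Clec4n (1.12), Clec5a (0.520) and Clec4e (0.198) were lowest, again with overlap between neighbours. The order depended on the length used. With the longest transcript in place of all exons, Clec12a was at 5.67 and Clec4a1 at 5.98 CPM per kilobase, both above Clec4a2 (5.39), while Clec10a and Clec7a remained highest. In liver the order was led by Clec4n (1.89 CPM per kilobase) and Clec7a (1.44), which overlapped. In the pituitary it was led by Clec7a (0.502) and Clec10a (0.361), which overlapped as well. There, with the longest transcript, Clec12a (0.445) came before Clec10a (0.422). The tissue's own markers were present in each, with 8 adipocyte genes summing to at least 10881 CPM in each eWAT library.

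**Figure D5:**
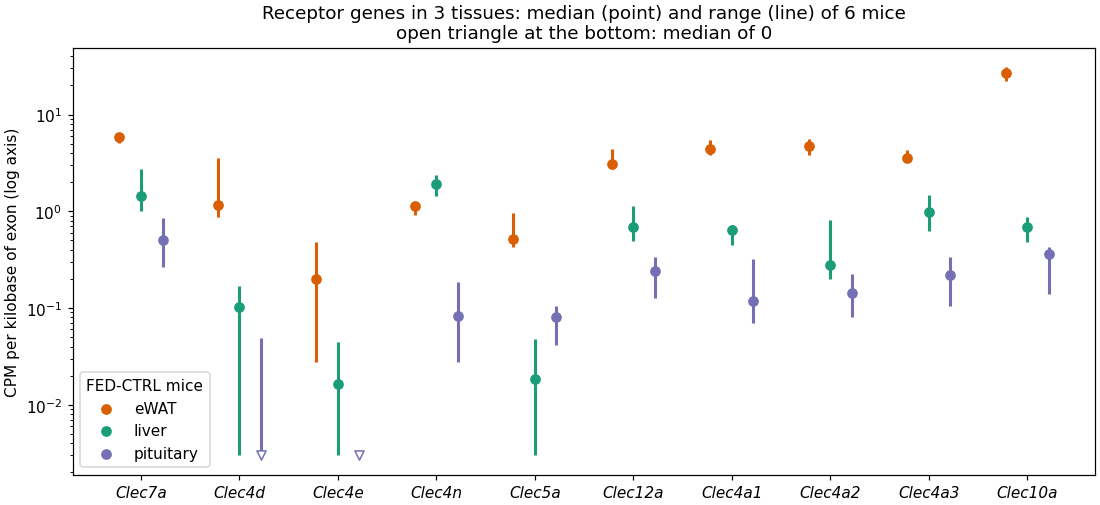
The level of each receptor (horizontal axis) in FED-CTRL mice is given in CPM per kilobase of exon on a log axis for eWAT, liver and pituitary, with the median as a point and the range of 6 mice as a line; open triangles mark a median of 0, and lines that reach the bottom include a value of 0. eWAT is highest for 9 of the 10 genes, with Clec10a at 26.9, and liver is highest for Clec4n at 1.89.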

How the data were processed

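RNA of 72 libraries (24 male mice, 3 tissues, 4 groups of 6) was analysed from the read counts per gene that the authors deposited. Per the study's methods and the submitters' processing notes, the authors trimmed the reads with Trimmomatic, aligned them with STAR to GRCm39 and counted them per Ensembl gene with featureCounts of Subread; versions and the strand setting were not given in the sources used here. The deposited counts were not normalized, so differences in depth (9842813 to 27601208 counts) and composition were corrected here. The labels name 10 or 16 weeks on the diet, and the study gives 10 weeks for the males sequenced. Per the labels, the pups of each dam were divided between the diets, so littermates can be in both diet groups. Which mice shared a dam was not given, so p-values measure the spread between these mice and not between dams. The restriction was applied to dams, and any littermates within a group were counted as separate replicates. The p-values between CR20 and FED mice and of the interaction may therefore be too small. The receptors and gene lists were chosen with earlier results of these data known.

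Groups and mouse numbers came from the labels. For each tissue, edgeR 4.0.16 (R 4.3.3) was fitted to 24 libraries with a mean per group, after filterByExpr and with TMM factors, by glmQLFit and glmQLFTest, with two-sided p-values adjusted over all genes tested. SE is the absolute log2FC divided by the root of F. Log2 CPM used a prior count of 2. Levels were compared between tissues over the 18 FED-CTRL libraries, and the diet changes over all 72. The 3 tissues of a number come from the same mouse, so the numbers pair the samples; deviations from the group means correlated weakly between tissues (median r 0.04 to 0.07). Alternatives were limma 3.58.1 voom with and without quality weights (the test of the study's methods is the former), DESeq2 1.42.0, its size factors in edgeR, other filters, thresholds and covariates, and each mouse left out. The ratio on library totals was added after seeing the data. The fit was also run on simulated eWAT counts with changes of known size. These held no mouse that was extreme across many genes, so this run cannot show how the fit handles mouse 23.

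The text names all 10 receptors in every comparison, Fcer1g, Tyrobp, Syk, Card9 and Ptpn6, the called gene with the smallest p-value of each list and direction, and the 5 genes most like the receptors. Gene names and positions came from GENCODE M39, and promoter windows from RefSeq. The floor of 3 counts covers counting error only. Of the 55416 genes, 667 had no match in GENCODE M39. Other outcomes of the study were not analysed here.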

Additional observations from a re-analysis of the deposited data

Results flagged for a closer look

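In eWAT of FED-HFD mice, mouse 23 lay far above the other 5 for Clec4d (log2 CPM 6.49, others 1.43 to 3.16) and for Clec4n (3.31, others 0.48 to 1.15). In FED-CTRL eWAT, mouse 14 lay above the others for Clec4d (2.56, others 0.61 to 1.30). In FED-HFD liver, mouse 40 lay below the others for Clec4a1 (-0.22, others 0.56 to 1.01). These are 4 of 92 groups of 6 mice examined, and chance alone marks about 1 in 20.

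The change with the HFD in eWAT differed between CR20 and FED offspring by the interaction test for Clec12a (-2.23), Clec4a2 (-1.86), Clec7a (-1.84), Clec4a3 (-1.27) and Clec4a1 (-1.09, all log2). It differed between eWAT and liver of FED mice for Clec4a2 (1.88), Clec12a (1.62), Clec7a (1.56) and Clec4a3 (1.53), and between eWAT and pituitary for Clec7a (1.62). With the mouse as a replicate block, Clec4a3 and Clec12a remained called against liver, while Clec4a2 and Clec7a against liver and Clec7a against pituitary did not.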

How the results depend on the processing

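In eWAT, the number of receptors called was 5 in FED-HFD vs FED-CTRL and 4 to 7 over 11 alternatives, and 6 in CR20-HFD vs FED-HFD and 5 to 8 over the same alternatives. With 1 mouse left out these ranges were 3 to 6 and 5 to 7, and the lowest values were those without mouse 23. In the interaction 5 receptors were called, 0 by voom with or without quality weights and 7 by DESeq2, and 0 to 7 with 1 mouse left out. The interaction count was 0 without mouse 5, 15, 16, 31, 32, 41, 42, 47 or 49, 2 without mouse 23 or 46, and 3 without mouse 4, 7, 12, 13, 14 or 24. The difference in the HFD change between eWAT and liver was called for 4 receptors, for 2 with the replicate block, for 1 by voom with quality weights and for 1 to 4 with 1 mouse left out, with 1 without mouse 14 or 23 and 2 without mouse 12 or 41. That between eWAT and pituitary was called for 1 receptor and for 0 with the replicate block, by voom with quality weights or with no filter, and for 0 to 1 with 1 mouse left out (0 without mouse 12, 13, 14, 15, 23, 24, 41 or 42). The replicate block changed no other call count by over 1.5 times. The cause was not tested.

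Directions of the differences between tissues in the HFD change turned for some receptors that were not called. Clec4d in eWAT minus pituitary went from 1.41 to -0.85 without mouse 23. Clec5a in eWAT minus liver went from -0.001 to 0.079 with the replicate block. Within eWAT, directions turned only among receptors that were not called, in the comparisons with 0 calls. In CR20-HFD vs CR20-CTRL, voom with quality weights gave log2FC 0.12 for Clec7a and 0.017 for Clec4a2, and with 1 mouse left out the values ranged from -0.62 to 0.33 for Clec4e, from -0.23 to 0.079 for Clec10a and from -0.25 to 0.063 for Clec4a2. In CR20-CTRL vs FED-CTRL, Clec4d was at -0.14 by voom with quality weights and -0.12 without them. Clec12a was there at -0.21 and -0.12 by these tests, at -0.006 by DESeq2 and by its size factors in edgeR, at -0.01 with no filter, at -0.008 with over 1 CPM in 6 libraries and at -0.007 with only the groups compared. With 1 mouse left out, the values in that comparison ranged from -0.21 to 0.50 for Clec4d, from -0.78 to 0.003 for Clec4e, from -0.25 to 0.008 for Clec7a, from -0.26 to 0.085 for Clec5a, from -0.16 to 0.16 for Clec12a, from -0.032 to 0.10 for Clec10a and from -0.13 to 0.027 for Clec4a3. Depth limits Clec4d, Clec4e and Clec5a in liver and these and Clec4n in pituitary, where most libraries had 3 counts or fewer for Clec4d and Clec4e.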
